A study of Homo sapiens with 5 samples.

Results

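LINC00458, LINC-ROR, ESRG and LINC00678 are long non-coding RNAs (lncRNAs) known for their expression in human pluripotent cells. These 4 genes were taken by name from the 33857 genes listed in the deposited table, and all 4 were listed. Poly(A+) RNA was sequenced from H9, a line of human embryonic stem cells, grown in mTeSR medium on Matrigel. The mock control group held 2 samples, with the treatment label control KO. Per the paper, its mock controls were 2 clones, picked at random, of cells transfected with the empty CRISPR/Cas9 vector, eCRISPR. The CFIm25-m group held 3 samples, with the treatment label CFIm25 KO. The study obtained its mutant clones with 3 independent guide RNAs, puromycin selection and the picking of single-cell clones. CFIm25, encoded by NUDT21, is a 3′ processing factor that binds UGUA in RNA. The mutant clones were hypomorphs with in-frame deletions near the start codon, not null mutants. They are called clones 1, 2 and 3 after their replicate numbers, and p-values measure the spread between these samples.

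LncRNAs of this kind are transcribed, spliced and polyadenylated like mRNAs but code for no protein. LINC-ROR was named for its role in reprogramming to pluripotency, ESRG is an abundant marker transcript of the undifferentiated state, and LINC00458, also called lncRNA-ES3 or HBL1, is known to be lost when pluripotent cells differentiate.

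The recovered libraries held between 18754108 and 23372391 reads. NUDT21 had normalized counts of 6503 and 6398 in mock control and of 4035, 3281 and 3400 in clones 1 to 3, a log2 fold change of -0.86 (limma-trend, adjusted p = 0.00431). Markers were used to check for an undifferentiated state, which does not identify the H9 line. POU5F1, the pluripotency transcription factor OCT4, had normalized counts between 30200 and 38899 in the 5 samples, and the endoderm genes SOX17 and FOXA2 had at most 1.15 and 1.00. Not all such markers were near 0. The early endoderm genes GATA4 and CER1 had between 1.80 and 17.0 and between 18.0 and 68.3. KDR, one of the germ layer markers listed, had between 2608 and 3635.

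The 3′ end of the transcripts is shown because CFIm25 acts there, and transcripts were taken from GENCODE (release 44 mapped to GRCh37). The last 30 bases of each first annotated transcript are printed with a polyadenylation hexamer (AATAAA or ATTAAA, searched on the transcript's strand) in capitals.
LINC00458-201: ctctaAATAAAgtaatacagtgtgaaaatt
LINC-ROR-201: ttcctcaaaaAATAAAatgtagaaacagca
ESRG-201: aATTAAAttcaaatggtttgatgagtaata
LINC00678-201: gagtagaacAATAAAgccattagtagtcaa
Each had a hexamer that began between 20 and 29 bases from the annotated end. AATAAA was found in the last 100 bases of 42.3% of 5373 first lncRNA transcripts, and ATTAAA in 15.6%. TGTA, the DNA form of the CFIm25 motif, was found in 38.3% of these windows, and 9.34% held at least 2. LINC-ROR-201 and ESRG-201 held 2 TGTA in their last 100 bases, and LINC00458-201 and LINC00678-201 held 0. The annotation differed between genes in its detail, with 16 transcripts for LINC00458, of which 5 held TGTA in this window, 8 for LINC-ROR with 3, 2 for LINC00678 with 0 and 1 for ESRG. These matches describe the annotated ends. Which of these ends the cells used was not measured by gene counts.

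The lncRNAs were expressed at very different levels. Levels are given as recovered reads per kb of gene length, scaled to the library's total in the usual RPKM unit, with exact Poisson intervals in the plot of levels that cover counting error only. In mock control, ESRG had 221 ± 2.40 RPKM (SD, n = 2), LINC00678 85.5 ± 2.64, LINC00458 31.8 ± 0.52 and LINC-ROR 0.438 ± 0.0205. ESRG had the highest mean of 8555 listed long non-coding genes in mock control, LINC00678 was at rank 5 and LINC00458 at rank 33. In CFIm25-m, the means were 193 ± 108 RPKM (SD, n = 3) for ESRG, 85.2 ± 29.6 for LINC00678, 0.522 ± 0.261 for LINC00458 and 0.237 ± 0.135 for LINC-ROR. The order of the 4 genes was the same in every sample. In CFIm25-m the ranges of LINC00458 (0.350 to 0.822 RPKM) and LINC-ROR (0.0991 to 0.369 RPKM) overlapped between clones, although LINC00458 was above LINC-ROR within each clone. In CFIm25-m, LINC00458 was at rank 2337, while ESRG remained at rank 1 and LINC00678 was at rank 6.

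**Figure D1:**
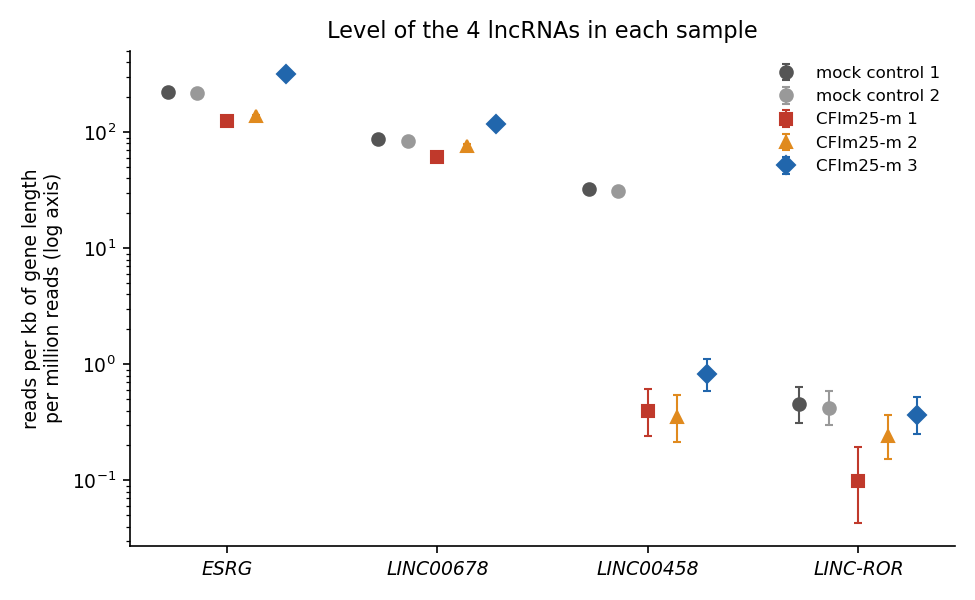
Level of each lncRNA in each of the 5 samples, in RPKM (recovered reads per kb of gene length, scaled to the library's total) on a log axis, with exact 95% Poisson intervals. LINC00458 stands between LINC00678 and LINC-ROR in mock control, at 31.8 RPKM, and beside LINC-ROR in the 3 clones, at 0.522 RPKM against 0.237.

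LINC00458 was almost lost in all 3 clones. LINC00458 (ENSG00000234787, minus strand of chromosome 13, 54115783 to 54132866 in GRCh38, a long intergenic RNA gene) had normalized counts of 1698 and 1664 in mock control and of 20.0, 18.0 and 40.4 in clones 1, 2 and 3. The clones kept 1.19%, 1.07% and 2.40% of the mock control mean. The clones' values rested on 20, 20 and 42 reads. On the log2(normalized count + 1) scale the fold change was -6.04 (standard error 0.30, 95% interval -6.71 to -5.38, adjusted p = 3.91e-05, limma-trend over 19232 tested genes), which is a 66.0-fold decrease with an interval of 41.5 to 105. LINC00458 had the lowest p of all tested genes and was at rank 5 from the lowest fold change. By comparison, 0.936% of tested genes were called lower and 1.88% were called in either direction. Of the 2793 tested long non-coding genes, 1.72% were called. In bulk RNA, fewer cells that express a gene and less RNA per cell cannot be told apart.

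The decrease of LINC00458 held with each sample left out, with log2 fold changes between -6.39 and -5.83 and adjusted p-values up to 0.00232. A processed pseudogene, AL356052.1, lies within LINC00458 on the opposite strand (chromosome 13, 54116476 to 54116851). It had normalized counts of 34.6 and 24.1 in mock control and of 0, 1.80 and 2.89 in the clones, a log2 fold change of -3.75 (limma-trend, adjusted p = 0.0226). Since the strand setting of the counting is not given in the sources used here, reads of this pseudogene and of LINC00458 cannot be told apart. With a pseudocount of 0.1, without the mean-variance trend and with clone 2 left out, AL356052.1 did not pass the threshold (adjusted p = 0.0972, 0.113 and 0.0645), and DESeq2 gave it no adjusted p. With either mock control left out, its counts were under the filter and it was not tested.

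The other lncRNAs did not pass the threshold, and their clones differed from each other. LINC-ROR (ENSG00000258609, minus strand of chromosome 18, 57054558 to 57072119, a long intergenic RNA gene) had normalized counts of 38.0 and 35.7 in mock control and of 8.02, 19.8 and 28.9 in clones 1, 2 and 3. The 3 clones had from 21.7% to 78.3% of the mock control mean. The log2 fold change was -1.09 (standard error 0.48, 95% interval -2.16 to -0.02, adjusted p = 0.321, limma-trend). It was -0.60 without clone 1 and -1.47 without clone 3. Between 8 and 37 reads stood behind each value, and its fold change had the largest standard error of the 4.

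ESRG (ENSG00000265992, minus strand of chromosome 3, 54632122 to 54639857, annotated as sense-intronic) had normalized counts of 15087 and 14902 in mock control and of 8095, 9139 and 20051 in clones 1, 2 and 3. Clones 1 and 2 were below both mock controls, at 54.0% and 60.9% of their mean, and clone 3 was above both, at 133.7%. The 2 mock controls differed by far less than the clones, with SDs of 131 (n = 2) and 6622 (n = 3). Over the 3 clones the log2 fold change was -0.39 (95% interval -1.08 to 0.29, adjusted p = 0.577, limma-trend). Without clone 3 it was -0.80 and passed the threshold (adjusted p = 0.000128), so that the value for this most abundant lncRNA rested on clone 3. ESRG lies within CACNA2D3, a calcium channel subunit gene on the opposite strand, whose normalized counts were between 62.1 and 99.4 in all samples (adjusted p = 0.444).

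LINC00678 (ENSG00000254934, minus strand of chromosome 11, 27617626 to 27634627, a long intergenic RNA gene) had normalized counts of 2199 and 2112 in mock control and of 1485, 1864 and 2769 in clones 1, 2 and 3. As for ESRG, clones 1 and 2 were below both mock controls and clone 3 was above both. The log2 fold change was -0.13 (95% interval -0.59 to 0.33, adjusted p = 0.806, limma-trend). It was -0.37 without clone 3 (adjusted p = 0.0632) and 0.08 without clone 1. LINC00678 lies within BDNF-AS, the antisense gene of the neurotrophin gene BDNF. BDNF-AS had between 10.02 and 25.01 normalized counts and was also highest in clone 3.

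**Figure D2:**
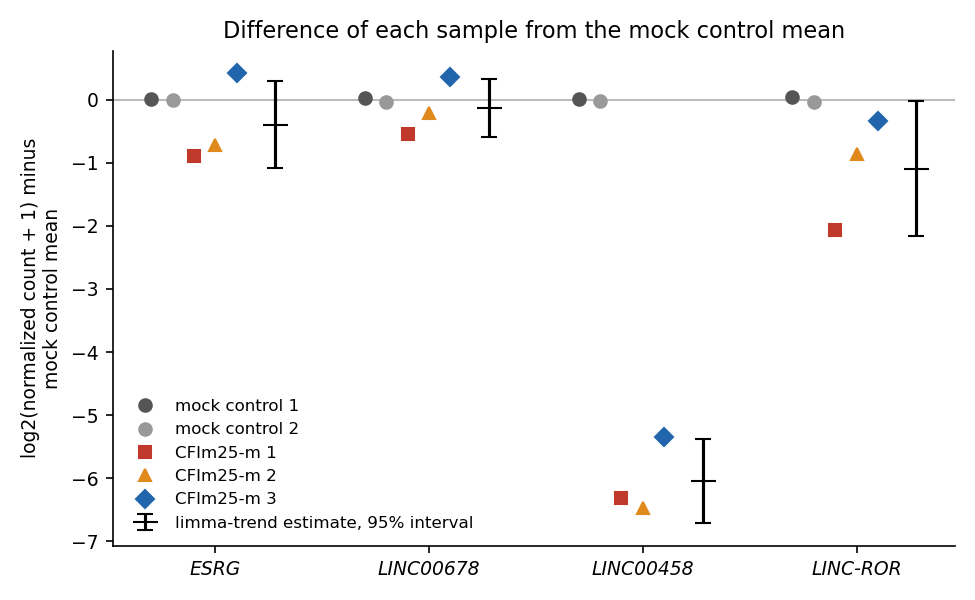
Difference of each sample from the mock control mean on the log2(normalized count + 1) scale, with the limma-trend estimate over the 3 clones and its 95% interval. All clones of LINC00458 lie below -5, while for ESRG and LINC00678 clone 3 lies above 0 and clones 1 and 2 below it.

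In all 4 genes clone 3 had the highest value of the clones, from 1.65 to 2.33 times the mean of clones 1 and 2. Clone 3 was the highest clone in 35.8% of all tested genes, in 49.7% of the 1015 tested lincRNA genes and in 60.5% of the 190 tested sense-intronic genes. A ratio as large as the smallest of the 4 genes was seen in 7.44% of all tested genes and in 19.8% of lincRNA genes. The pattern of ESRG and LINC00678, with clones 1 and 2 below both mock controls and clone 3 above both, was seen in 842 tested genes, or 4.38%. It was seen in 6.70% of lincRNA genes and in 8.42% of sense-intronic genes. In clone 3, the median log2 difference from the mock control mean was -0.03 over all tested genes, 0.28 over lincRNA genes and 0.38 over sense-intronic genes. In clones 1 and 2 it was 0.11 and 0.01 over lincRNA genes and 0.12 and -0.11 over sense-intronic genes. The part of this shift of non-coding classes in the values of the 4 lncRNAs was not tested.

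The fold change of LINC00458 stood apart from those of the other lncRNAs. The difference in log2 fold change, computed from the log2 ratio of the 2 genes within each sample, was -4.95 against LINC-ROR, -5.65 against ESRG and -5.92 against LINC00678. In each of these 3 pairs, the ratios of the mock controls and of the clones did not overlap. This was not particular to LINC00458, as it also held for LINC-ROR against ESRG and against LINC00678. The exact permutation test over the 10 arrangements of the samples (two-sided) gave p = 0.1 for each pair with LINC00458. That is the smallest p that 2 against 3 samples allow, and it was 0.15 after adjustment over the 6 pairs compared. Among the other genes, the difference was -0.70 between LINC-ROR and ESRG (exact p = 0.2), -0.96 between LINC-ROR and LINC00678 (exact p = 0.1) and -0.27 between ESRG and LINC00678 (exact p = 0.4). The ratio of LINC00458 to ESRG differed little between clones, with log2 values of -8.59, -8.91 and -8.92, against -3.15 and -3.16 in mock control. In clone 3 both lncRNAs were higher, in about the same proportion as in clones 1 and 2. The LINC00458 values rested on 20, 20 and 42 reads, and this pair had the smallest SD between clones of the 6 (0.19).

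The genes around LINC00458 were sparse, and the nearest 2 at lower coordinates were called lower. Of the 5 nearest tested genes on each side, which lay between 308 and 6142 kb away, 2 of 10 were called lower and 0 higher by limma-trend, against 0.936% of all tested genes called lower. At an unadjusted p under 0.05 there were 3 of 10, against 2911 of all 19232 tested genes. The third was PCDH17, a protocadherin gene at higher coordinates. It had normalized counts of 16.1 and 11.6 in mock control and of 21.0, 38.7 and 26.9 in the clones. Its log2 fold change was 0.98 (95% interval 0.14 to 1.82, limma-trend, adjusted p = 0.255). PCDH8, a protocadherin gene 1267 kb away, had normalized counts of 96.8 and 106 in mock control and of 30.1, 21.6 and 25.01 in the clones, a log2 fold change of -1.96 (limma-trend, adjusted p = 0.0064). CNMD, the chondromodulin gene next to it at 1376 kb, had 4180 and 4203 in mock control and 3273, 3088 and 2859 in the clones, a log2 fold change of -0.45 (limma-trend, adjusted p = 0.0432). In both, the groups did not overlap, but the share of all tested genes for which this held was not counted. SUGT1, at 1415 kb on the same side, had a log2 fold change of -0.02 (95% interval -0.23 to 0.20). The nearest tested gene, the ribosomal protein pseudogene RPL13AP25 at 308 kb on the other side, had one of -0.20 (95% interval -0.77 to 0.38). The median over the 10 was -0.15. With either mock control left out, 0 of the 10 neighbours were called, and with clone 1 or clone 2 left out 1 was.

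**Figure D3:**
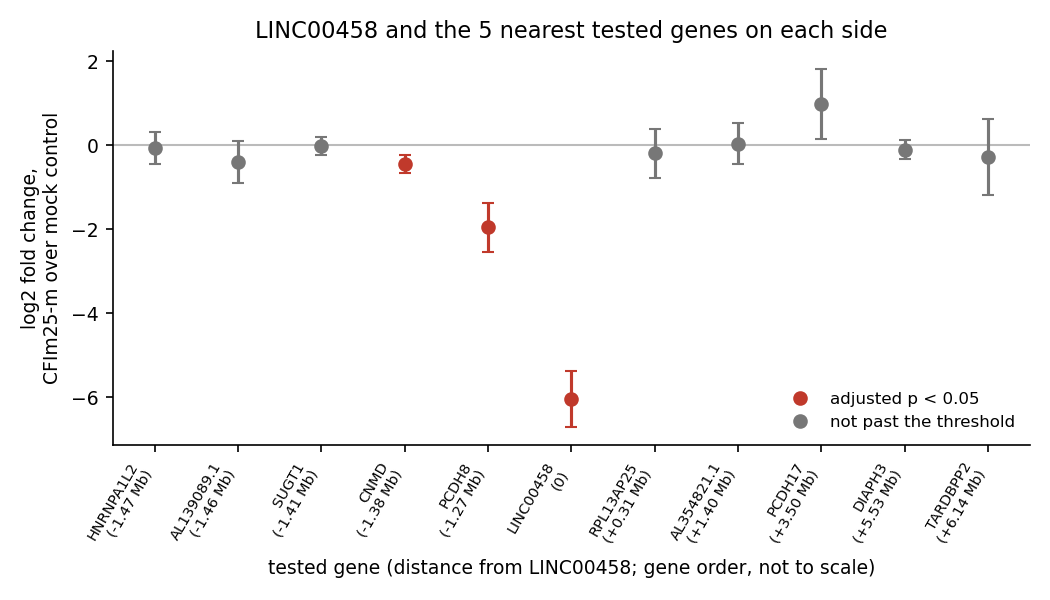
Log2 fold change with its 95% interval for LINC00458 and its 5 nearest tested genes on each side, in gene order with the distance from LINC00458 under each name. PCDH8 and CNMD, both at lower coordinates, passed the threshold with log2 fold changes of -1.96 and -0.45, and the other 8 neighbours did not.

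Around the other lncRNAs, 0 of 30 neighbours passed the threshold in limma-trend (4 at an unadjusted p under 0.05, 0 by edgeR and 1 by DESeq2). Of all 19232 tested genes, 2911 had an unadjusted p under 0.05. The median log2 fold change of the 10 nearest tested genes was -0.08 for LINC-ROR, 0.02 for ESRG and -0.06 for LINC00678. WDR7, at 18.0 kb from LINC-ROR, had a log2 fold change of -0.23 (95% interval -0.50 to 0.03), and ST8SIA3, a sialyltransferase gene, one of -0.05. BDNF, at 20.3 kb from LINC00678, had one of 0.26 (95% interval -0.38 to 0.91), and LIN7C one of -0.06. The genes nearest to ESRG lay at least 740 kb away beside CACNA2D3, which overlaps it. SELENOK, the nearest, had one of -0.17, and WNT5A, a Wnt ligand gene, one of 0.04.

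The genes most like LINC00458 were found by the root mean square difference of their log2 values, centred on the mock control mean, over the 5 samples, among 12330 tested genes with a mean of at least 100. CHCHD2, a mitochondrial protein gene on chromosome 7, was nearest at 0.44, with normalized counts of 280.1 and 279.9 in mock control and of 1.00, 2.70 and 3.85 in clones 1 to 3. The next were UBBP4 at 1.90 and BX322639.1 at 2.24, both pseudogenes whose reads may be shared with their copies, and the metallothionein genes MT1E at 2.71 and MT1G at 2.84. Beyond CHCHD2 the likeness was thus loose among genes with this minimum mean. UBBP4 had a log2 fold change of -3.95 and MT1G one of -2.45, both smaller in size than that of LINC00458. With a minimum mean of 50, only CHCHD2 was named again among the 5. The others, ZNF717 at 1.37, AC004687.1 at 1.69, CCDC152 at 1.69 and LINC00654 at 1.79, were nearer than UBBP4.

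LINC00458 was 1 of 29 long non-coding genes called lower, 20 of them lincRNA genes, while 19 were called higher. Values of other lncRNAs and of pluripotency genes are given by list. The lists are short and were chosen with earlier results of these data known, so the counts depend on which genes they hold. XACT, a lncRNA known from human pluripotent cells, is on none of them and was called lower, from 769 and 704 normalized counts in mock control to 425, 418 and 371 in clones 1 to 3 (limma-trend, adjusted p = 0.0064). LINC00654, a lincRNA gene, fell from 156 ± 10.2 (SD, n = 2) to 10.2 ± 1.31 (SD, n = 3), a log2 fold change of -3.82 (limma-trend, adjusted p = 0.000228). XACT and LINC00654 were picked with their values known. Of 9 other lncRNAs linked to pluripotency, 5 were listed and tested, and 0 passed the threshold in limma-trend (2 at an unadjusted p under 0.05, 1 by DESeq2 and 0 by edgeR). Their median log2 fold change was -0.26. For the unadjusted counts of these lists, the background was 2911 of all 19232 tested genes. TUNAR, which is annotated as protein-coding in these data, had 1957 and 2065 normalized counts in mock control and 1554, 1614 and 1240 in the clones (limma-trend, adjusted p = 0.103). LINC01108 had 51.9 and 68.5 against 26.1, 32.4 and 43.3 (limma-trend, adjusted p = 0.234). HPAT5 had 566 and 544 against 464, 401 and 809, with clones 1 and 2 below and clone 3 above both mock controls. TUNAR and LNCPRESS1 of the same list were lowest in clone 3. Of 15 tested broadly expressed lncRNAs, which include the nuclear RNAs MALAT1 and NEAT1 and the snoRNA host GAS5, 0 passed in limma-trend, edgeR and DESeq2 (1 at an unadjusted p under 0.05), with a median of 0.04. NEAT1 was also highest in clone 3, at 1713 against 1179 and 1146 in mock control and 1027 and 876 in clones 1 and 2. NORAD and OIP5-AS1 of the same list were lowest in clone 3. Of 14 lncRNAs linked to differentiation, 3 were listed and 2 tested, SOX2-OT and HAND2-AS1, and 0 passed (0 at an unadjusted p under 0.05, and 0 by edgeR and DESeq2).

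Of 15 core pluripotency genes, 1 was called lower and 0 were called higher, and the median log2 fold change was -0.21. An unadjusted p under 0.05 was seen in 6 of them, against 2911 of all 19232 tested genes. The called gene was ZFP42, which encodes the pluripotency marker REX1, with 2306 and 2403 normalized counts in mock control and 4.01, 3.60 and 0 in clones 1 to 3 (limma-trend, adjusted p = 0.000123). With either mock control left out, ZFP42 did not pass and 0 of the 15 were called, and without clone 3, 7 were called. NANOG had 1324 and 1298 in mock control and 852, 1118 and 1245 in the clones (limma-trend, adjusted p = 0.36). Clone 3 was its highest clone, as in 35.8% of all tested genes. LIN28A and LIN28B of this list were lowest in clone 3, LIN28A with 48004, 47650 and 33716 in clones 1 to 3. SALL4, PRDM14 and DNMT3B, regulators of the pluripotent state, had log2 fold changes of -0.35, -0.44 and -0.33, none past the threshold. POU5F1, TDGF1 and FOXD3 of the same list went the other way, at 0.21, 0.14 and 0.12, also not past it. POU5F1 had 30200 and 31427 in mock control and 34789, 38899 and 33173 in the clones.

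Markers of other cell types were mostly low. Of 20 Nodal and early endoderm genes, 14 were tested and 0 passed in limma-trend, edgeR and DESeq2 (4 at an unadjusted p under 0.05). An unadjusted p under 0.05 was seen in 2911 of all 19232 tested genes. LEFTY1, a Nodal inhibitor, had 471 and 495 in mock control and 93.2, 239 and 577 in the clones. NODAL itself had 119 and 90.7 against 31.1, 111 and 136. Both were lowest in clone 1 and highest in clone 3, while ACVR1B, ACVR2B and SMAD2 of the same list were lowest in clone 3. Of 22 germ layer and extraembryonic markers, 19 were listed and 8 tested, and 0 passed in limma-trend (2 at an unadjusted p under 0.05, 0 by edgeR and 1 by DESeq2). Their summed normalized count was 23537 and 24905 in mock control and lay between 20850 and 21983 in the clones, most of it from NES and COL1A1. Of these markers, SOX17, FOXA2 and CDX2 had at most 1.15 normalized counts in any sample, while GATA4 had up to 17.0 and KDR between 2608 and 3635. AFP, an endoderm marker, had 10.4 and 4.83 in mock control and 26.1, 17.1 and 14.4 in the clones, a log2 fold change of 1.27 (limma-trend, adjusted p = 0.232). CXCR4, a receptor used as a marker of definitive endoderm, had 13.8 and 4.83 against 20.0, 27.9 and 23.1, a log2 fold change of 1.40 (limma-trend, adjusted p = 0.187). AFP and CXCR4 were picked out after their values were seen, and their counts lay near the filter. Other genes of these lists went the other way. HHEX, an early endoderm gene, had a log2 fold change of -0.56 and SOX1, a neural marker, one of -0.99, neither past the threshold.

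**Figure D4:**
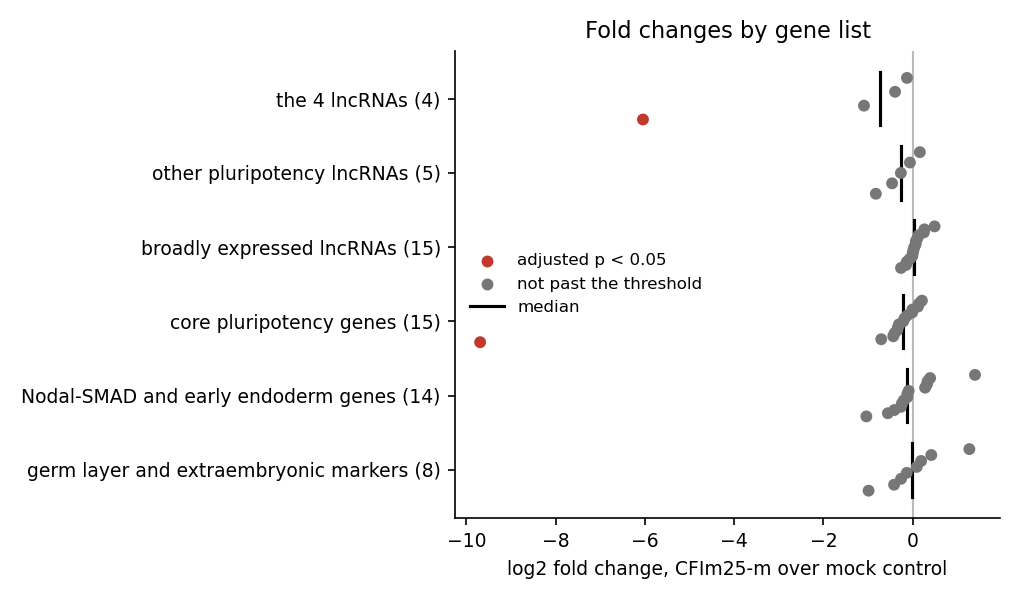
Log2 fold change of each tested gene by list, with the number of tested genes in brackets and the median as a line. LINC00458 at -6.04 and ZFP42 at -9.69 are the only genes of these lists past the threshold, and the medians of the other lists lie between -0.26 and 0.04.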

How the data were processed

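Poly(A+) RNA of H9 cells was sequenced as paired reads, and per the labels 2 samples were controls and 3 were CFIm25 KO. The submitters' processing notes name HISAT2, featureCounts, Subread, DESeq2 and hg38. Versions, annotation release and strand setting are not given in the sources used here. The authors deposited 1 table with a normalized signal per gene and sample, read counts divided by a size factor, and gene lengths in bases. Their group means, fold changes and p-values were not used. In each sample 100% of values were whole multiples of the value of 1 read (tolerance 0.001), which gave the reads behind each value. 0 per-sample columns had no sample.

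A gene was tested if 2 or more samples reached a normalized count of 10, which held for 19232 genes. The test was limma 3.58.1 (R 4.3.3) with a mean-variance trend, run on log2(value + 1). This scale understates the change of low genes. Adjusted p-values are Benjamini-Hochberg values over all tested genes, and genes under 0.05 were called. Alternatives were edgeR 4.0.16 and DESeq2 1.42.0 on recovered reads, other scalings, filters, pseudocounts and variance models, the omission of each sample in turn and a replicate block. Tests were checked on simulated data. The text names the 4 lncRNAs, genes overlapping or near them, the 5 genes most like each called lncRNA, NUDT21 and, of each list, called genes and a few of its tested or most abundant members. The members and lists were chosen with earlier results of these data known. Transcripts came from GENCODE on GRCh37, while gene positions are those of the table, in GRCh38, so no sequence was read by coordinates. Of the 4 lncRNAs, 0 had an entry in the promoter table used here, so promoters were not analysed here. A comparison of transcript sequences is not reported here.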

Additional observations from a re-analysis of the deposited data

How the results depend on the processing

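The log2 fold change of LINC00458 kept its direction and its call in all 16 alternatives. LINC-ROR, ESRG and LINC00678 passed the threshold under the replicate block, with log2 fold changes of -1.47 (adjusted p = 0.0108), -0.80 (adjusted p = 4.6e-14) and -0.37 (adjusted p = 0.000544). In that fit clone 3 is alone in its block, so the estimate is that without clone 3. Deviations from the group means correlated at 0.007 and 0.018 between samples that share a number. The deviations of 2 mock controls mirror each other, so these values cannot show whether the samples were paired. Samples left out 1 at a time gave -6.39 to -5.83 for LINC00458, -1.47 to -0.60 for LINC-ROR, -0.80 to -0.15 for ESRG and -0.37 to 0.076 for LINC00678, which changed sign without clone 1. LINC-ROR was not tested under a filter at 50. With 1 mock control left, that sample is assumed to vary like the clones.

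Of all tested genes, 180 were called lower and 181 higher. The counts were 280 and 349 by DESeq2, 25 and 21 without the mean-variance trend, 1064 and 1043 under the replicate block, and 33 to 524 and 31 to 520 with 1 sample left out. Scaling to total reads moved the median log2 fold change of all tested genes from -0.01 to 0.06. BDNF-AS, at 0.01, changed sign without clone 3 and under the replicate block (both -0.36) and without mock control replicate 2, with values between -0.36 and 0.255 with 1 sample left out. The cause of these changes was not tested. Of the 4 lncRNAs, LINC-ROR, with 8 to 37 reads a sample, had the largest standard error.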
